A study of Homo sapiens with 5 samples.

Results

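The genes described are 10 that set how readily membrane lipids are oxidised in ferroptosis. GPX4, AIFM2, DHODH and GCH1 protect lipids, ACSL4 and LPCAT3 supply the lipids that are oxidised, ALOX5, ALOX15 and POR take part in the oxidation, and PTGS2 is used as a marker of the process. They were chosen by their function, out of 19689 genes with a protein-coding transcript, and each region covered the gene as annotated plus 10 kb on either flank (GENCODE release 44, GRCh38). Over these regions lay 48 of the 83512 peaks in 5 CUT&Tag peak lists. CUT&Tag is an assay in which the Tn5 transposase, tethered to an antibody through protein A, inserts sequencing adapters near the antibody's target. All 5 libraries came from SNU638, a human gastric cancer cell line grown in medium with serum, and the labels name no treatment. The antibodies were against ACTL6A, BRG1 and NRF2, each used for 1 library. IgG was the study's control, here in 2 libraries called IgG 1 and IgG 2. The study used the libraries to look for sites that ACTL6A, BRG1 and NRF2 have in common. No antibody was replicated and no treatment was compared, so the values below carry no test and no replicate error.

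Ferroptosis is an iron-dependent cell death driven by peroxides of phospholipids that carry polyunsaturated fatty acids. Cells limit it by reducing those peroxides with glutathione through GPX4, and by keeping ubiquinol and tetrahydrobiopterin in supply as traps for lipid radicals. ACTL6A is an actin-related subunit of SWI/SNF chromatin remodelling complexes, BRG1 is an ATPase of these complexes, and NRF2 is a transcription factor that binds antioxidant response elements (AREs) together with small MAF proteins.

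The sequences below are stretches of the shared and separate peaks at the starts of the genes. All are reference sequence of GRCh38, written 5′ to 3′ on the strand of the gene, with matches to the GC box (GGGCGG on either strand) in capitals. The stretch of LPCAT3, chr12:7018596-7018789 on the minus strand, lay in an ACTL6A, a BRG1 and an NRF2 peak at once. That of DHODH, chr16:72008483-72008587 on the plus strand, is the part of its BRG1 peak upstream of the annotated gene. That of GPX4, chr19:1103791-1103981 on the plus strand, is likewise the upstream part of the BRG1 peak at the start. Neither upstream part reaches the BRG1 summit, and that of GPX4 ends before its NRF2 peak begins. That of ACSL4, chrX:109733025-109733101 on the minus strand, is all that its BRG1 and NRF2 peaks had in common. For AIFM2, on the minus strand of chromosome 10, the stretch shared by ACTL6A and BRG1 (chr10:70131779-70131886) and the 200 bp around the NRF2 summit (chr10:70132255-70132454) are given, since they did not coincide.
LPCAT3, shared by ACTL6A, BRG1 and NRF2: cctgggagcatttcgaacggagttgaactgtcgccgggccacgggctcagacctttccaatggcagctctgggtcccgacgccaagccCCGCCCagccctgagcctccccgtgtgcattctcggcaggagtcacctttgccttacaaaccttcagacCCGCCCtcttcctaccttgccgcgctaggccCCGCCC
DHODH, upstream part of the BRG1 peak: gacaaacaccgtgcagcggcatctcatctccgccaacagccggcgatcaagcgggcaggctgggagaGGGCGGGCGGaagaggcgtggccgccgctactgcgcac
GPX4, upstream part of the BRG1 peak: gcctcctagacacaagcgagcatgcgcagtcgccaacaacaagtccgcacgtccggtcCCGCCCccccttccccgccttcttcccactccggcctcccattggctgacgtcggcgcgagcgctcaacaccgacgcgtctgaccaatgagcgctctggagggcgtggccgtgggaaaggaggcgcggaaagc
ACSL4, shared by BRG1 and NRF2: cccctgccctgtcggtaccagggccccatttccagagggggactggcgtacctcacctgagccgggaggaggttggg
AIFM2, shared by ACTL6A and BRG1: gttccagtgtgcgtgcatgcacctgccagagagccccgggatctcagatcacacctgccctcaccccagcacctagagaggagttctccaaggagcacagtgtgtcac
AIFM2, around the NRF2 summit: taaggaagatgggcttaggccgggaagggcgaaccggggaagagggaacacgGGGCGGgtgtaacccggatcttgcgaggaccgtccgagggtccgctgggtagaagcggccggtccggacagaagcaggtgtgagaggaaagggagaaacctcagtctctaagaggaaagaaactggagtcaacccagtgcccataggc
The stretches of LPCAT3, DHODH, GPX4 and the NRF2 summit of AIFM2 held 3, 2, 1 and 1 GC boxes, and the other 2 stretches held 0. Their GC content ran from 60.2% to 69.5%.

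BRG1 was found at a start of every member, and ACTL6A and NRF2 at fewer. A peak counted as lying at a transcription start site (TSS) if no more than 1 kb parted it from the beginning of any protein-coding transcript. By this rule 10 of 10 members had a BRG1 peak at a TSS, against 63.5% of all genes. For ACTL6A the count was 4 of 10 (LPCAT3, AIFM2, DHODH and POR), near the 38.5% of all genes. For NRF2 it was also 4 of 10 (GPX4, ACSL4, LPCAT3 and AIFM2), against 28.1% of all genes. With 10 genes the counts for ACTL6A and NRF2 lie close to what all genes show. Only LPCAT3 and AIFM2 had peaks of all 3 antibodies at a TSS, a pattern seen in 22.1% of all genes. GPX4 and ACSL4 had BRG1 and NRF2 without ACTL6A, which was the rarest pattern held by any member, at 5.59% of all genes. DHODH and POR had ACTL6A and BRG1 without NRF2 (14.7% of all genes), and GCH1, ALOX5, ALOX15 and PTGS2 had BRG1 alone (21.1%).

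Over the whole regions, the BRG1 list held 31 peaks in 10 of 10 members (82.7% of all genes had a peak by this rule). The ACTL6A list held 8 peaks in 6 of 10 members (66.9% of all genes), and the NRF2 list 9 peaks in 5 of 10 (41.1% of all genes). IgG 1, with 11 peaks in all, and IgG 2, with 1746, had 0 peaks over any member, where 1.67% of all genes had one of IgG 2. The IgG 2 peak nearest to a member lay 27.1 kb from ALOX5. The members' regions spanned 649 kb, and BRG1 peaks lay in them at 4.78 per 100 kb, against 3.12 over the regions of all genes pooled and a median of 3.62 over single genes. For ACTL6A the density was 1.23 per 100 kb, against 1.38 pooled and a median of 1.46. For NRF2 it was 1.39 per 100 kb, against 0.594 pooled and a median of 0. Of the 48 peaks, 24 lay at a TSS of the member itself, 9 at the TSS of a neighbouring protein-coding gene and 15 at neither. The neighbours were POLR2E beside GPX4, EMG1 and PHB2 beside LPCAT3, and TMEM120A beside POR, and each had peaks of at least ACTL6A and BRG1. Of the 9 NRF2 peaks, 4 lay at a TSS of the member itself, 3 at that of a neighbour and 2 at neither. The differences in density were not tested.

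**Figure D1:**
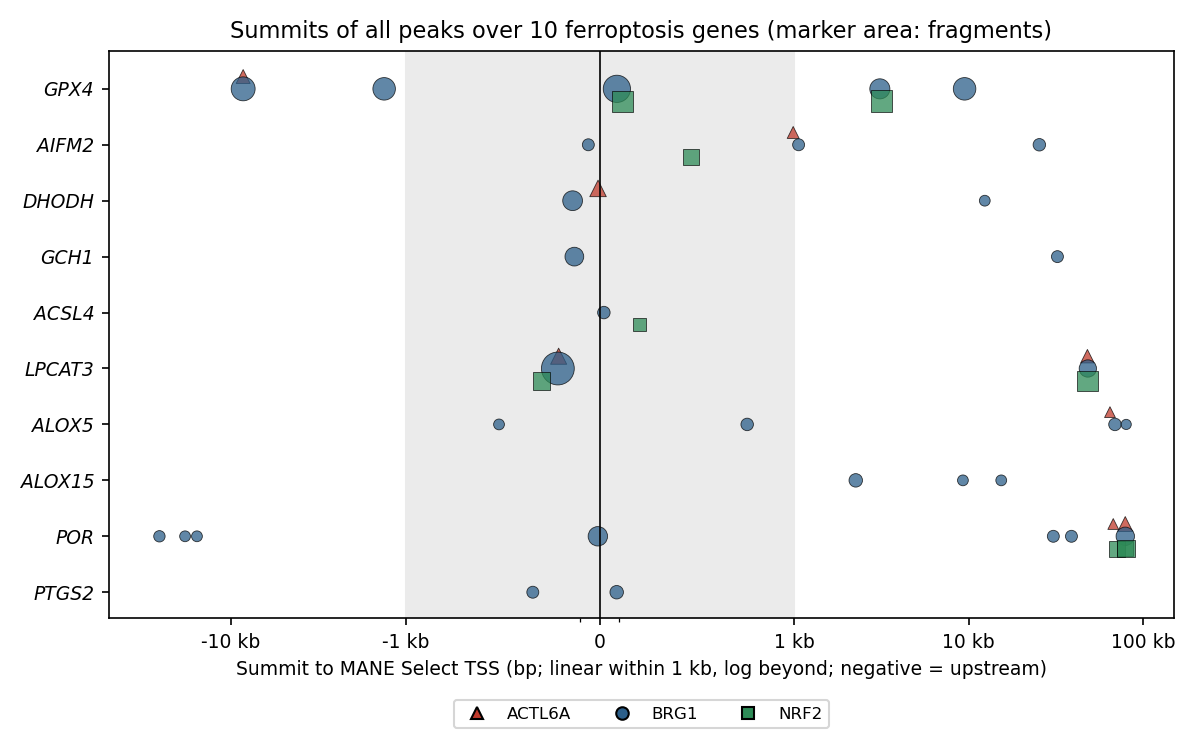
Distance from the MANE Select TSS (x axis, bp, linear within 1 kb and logarithmic beyond, upstream negative) to the summit of each of the 48 peaks over the 10 genes (rows), with marker area growing with the fragments at the summit. The grey band is 1 kb to each side of the start, where 19 peaks lay by their nearest edge, and every row but that of ALOX15 has a BRG1 marker in it.

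The caller's fold and q-value depend on each library's own background, so peaks are compared here by their place within a list and by fragments. Fragments at a summit, and those expected from the caller's local background, were worked back from the deposited fold enrichment and p-value. A peak is said to hold the fragments at its summit, which are not a total over its width. Over whole lists the median was 6 fragments in the ACTL6A list, 10 in the BRG1 list and 17 in the NRF2 list, and the lowest number at a called peak was 3, 3 and 8. At the members' peaks the medians were 10.5, 8 and 19 fragments. Intervals on these numbers are exact Poisson 95% intervals and cover counting error only. BRG1 had a peak at a TSS of 6 of 7 epithelial and gastrointestinal marker genes (EPCAM, CDH1, KRT8, KRT18, KRT19 and GATA6, not HNF4A) and of 1 of 4 markers of other cell types (COL1A1), beside 63.5% of all genes. So few markers say little about the cell type, and the peak lists do not measure expression.

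GPX4 (ENSG00000167468, chromosome 19, 1103982 to 1106791, plus strand), the selenoenzyme that reduces phospholipid hydroperoxides with glutathione, had 8 peaks, of which 5 were of BRG1. At its start the BRG1 peak ran from 1103791 to 1104659 with a summit in coding exon 1, 88 bp downstream of the TSS of the MANE Select transcript, the gene's agreed reference transcript. It held 53 fragments (39.7 to 69.3) where 8.15 were expected, and ranked 5623 in its list (11.5%). The NRF2 peak, from 1104018 to 1104496, lay wholly inside the BRG1 peak with a summit 27 bp away. It held 30 fragments (20.2 to 42.8) against 8.74 expected and ranked 4629, in the highest 51.2% of its list. Both antibodies thus had a peak over the first exon, and the ACTL6A list had none within 1 kb of any of the 11 annotated protein-coding starts.

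Both antibodies also met just beyond the 3′ end of GPX4. There BRG1 had a peak from 1106995 to 1107387 with 27 fragments against 8.42 expected, and NRF2 one from 1107030 to 1107355 with 32 fragments (21.9 to 45.2) against 9.12 expected. The NRF2 peak beyond the 3′ end ranked 4101, above the NRF2 peak at the start. A further BRG1 peak lay 1327 bp upstream of the start with 35 fragments against 8.07 expected, and another, from 1113236 to 1113907, lay inside the neighbouring gene SBNO2 with 35 against 4.09 expected. The ACTL6A peak of the region lay 8504 bp upstream, at the TSS of POLR2E, a subunit of RNA polymerases, with 11 fragments against 0.973 expected, and a BRG1 peak with 40 fragments covered it with a summit 1 bp away. The expected numbers around GPX4 were high for these lists. Over all BRG1 peaks the median expected number was 0.854, and 1.21% of them had a higher expected number than the peak at the GPX4 start. For the NRF2 peak there the share was 5.50%. The part of this background in the ranks was not tested.

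AIFM2 (ENSG00000042286, chromosome 10, 70098223 to 70132934, minus strand), which encodes FSP1, the enzyme that regenerates ubiquinol outside mitochondria, had peaks of all 3 antibodies at its start, but they lay side by side. The ACTL6A peak, from 70131779 to 70131971 in intron 1, had its summit 996 bp downstream of the MANE Select TSS and held 7 fragments (2.81 to 14.4) against 0.614 expected. The NRF2 peak, from 70132248 to 70132670, also in intron 1, had its summit 470 bp downstream and held 15 fragments (8.40 to 24.7) against 3.31 expected. BRG1 had a peak from 70131683 to 70131886, which shared 108 bp with the ACTL6A peak, and another from 70132834 to 70133002, with a summit 59 bp upstream of the TSS. Each of these BRG1 peaks held 7 fragments, against 1.09 and 0.966 expected. The NRF2 peak overlapped none of the others, and gaps of 276 bp and 163 bp parted it from the ACTL6A peak and from the BRG1 peak at the start. In their lists they stood at 46.2% for ACTL6A, 76.1% for the higher BRG1 peak and 74.5% for NRF2. A BRG1 peak with 8 fragments lay 25357 bp downstream, where AIFM2 overlaps MACROH2A2. The start of a MACROH2A2 transcript that is not annotated as protein-coding lay within 1 kb of that peak.

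DHODH (ENSG00000102967, chromosome 16, 72008588 to 72027664, plus strand), the enzyme of pyrimidine synthesis that passes electrons to mitochondrial ubiquinone, had the highest-placed ACTL6A peak of all members. It ran from 72008579 to 72008871 with a summit 9 bp upstream of the TSS, and held 17 fragments (9.90 to 27.2) against 0.591 expected. It ranked 1143 of 23917, in the highest 4.78%. The BRG1 peak, from 72008483 to 72009064, covered it whole, with a summit 131 bp away and 26 fragments (16.98 to 38.1) against 1.46 expected (highest 12.7%). The NRF2 list held 0 peaks in the region of DHODH. BRG1 had a further peak in intron 4 with 5 fragments against 0.308 expected.

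GCH1 (ENSG00000131979, chromosome 14, 54842008 to 54902826, minus strand), GTP cyclohydrolase, which commits GTP to the synthesis of tetrahydrobiopterin, had BRG1 peaks and no others. The peak at the start ran for 1206 bp from 54902025 to 54903230, the widest at any member's own TSS, with a summit 131 bp upstream. It held 23 fragments (14.6 to 34.5) against 1.68 expected and ranked 8853 (18.1%). A peak in intron 1, 32178 bp from the TSS, held 7 fragments against 0.322 expected. Among the 4 protective genes the BRG1 peak at the start thus stood in the highest 11.5% to 18.1% of its list for GPX4, DHODH and GCH1, and at 76.1% for AIFM2. Set only against the 12512 genes with a BRG1 peak at a TSS, the places were lower. They were 33.2% for GPX4, 36.0% for DHODH, 48.7% for GCH1 and 96.1% for AIFM2.

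ACSL4 (ENSG00000068366, chromosome X, 109624244 to 109733403, minus strand), which joins arachidonic and adrenic acid to coenzyme A, had a BRG1 and an NRF2 peak at its start and no other peak over its 109160 bp or 10 kb to each side. The BRG1 peak, from 109733025 to 109733332, had its summit in the 5′ UTR, 21 bp downstream of the MANE Select TSS, and held 8 fragments (3.45 to 15.8) against 0.560 expected. The NRF2 peak, from 109732817 to 109733101, had its summit in intron 1, 206 bp downstream, and held 9 fragments (4.12 to 17.1) against 1.48 expected. The peaks shared 77 bp at their edges and the summits lay 185 bp apart. In place within the lists these were at 48.1% for BRG1 and 87.9% for NRF2, and the NRF2 peak was the lowest-placed of all members' NRF2 peaks. The start of an unnamed gene, ENSG00000289365, lay within 1 kb of both.

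LPCAT3 (ENSG00000111684, chromosome 12, 6976185 to 7018477, minus strand), which inserts polyunsaturated acyl chains into lysophospholipids, had the highest-placed BRG1 and NRF2 peaks at a start among the members. The BRG1 peak, from 7018396 to 7018984, held 79 fragments (62.5 to 98.5) against 2.41 expected. It ranked 223 of 48793 peaks (0.457%), and 149 among the 12512 genes with a BRG1 peak at a TSS (1.19%). The ACTL6A peak, from 7018596 to 7018789, held 16 fragments (9.15 to 26.0) against 0.614 expected (highest 6.14%), and the NRF2 peak, from 7018258 to 7018903, held 20 (12.2 to 30.9) against 2.83 expected (highest 30.0%). All 3 summits lay upstream of the single annotated TSS, by 212 bp for ACTL6A, 216 bp for BRG1 and 301 bp for NRF2, so the ACTL6A and BRG1 summits were 4 bp apart. The whole ACTL6A peak, 194 bp, lay inside the other two. This stretch also lies within the annotated extent of C1S, the complement protease gene beside it. About 48 kb downstream, at the starts of EMG1, PHB2 and an unnamed gene, ENSG00000290146, lay another set of peaks, with 10 fragments for ACTL6A, 19 for BRG1 and 28 for NRF2.

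**Figure D2:**
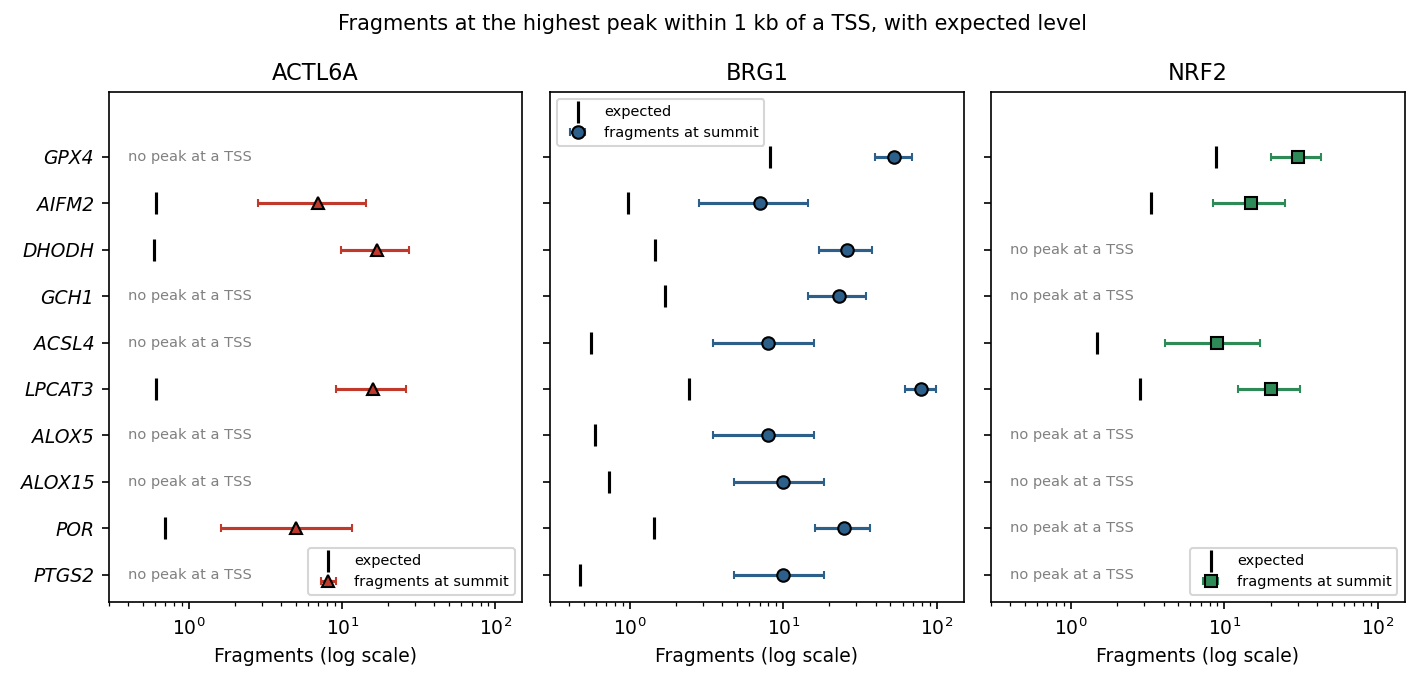
Fragments at the summit of the highest-placed peak within 1 kb of a TSS for each member (points, log scale, bars are exact Poisson 95% intervals) and the number expected there (black ticks), in a panel for each antibody. BRG1 has a point for all 10 genes, from 7 fragments at AIFM2 to 79 at LPCAT3. Every interval lies above its expected number, but peaks were called for exceeding that same number, so this follows from their selection.

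The lipoxygenase genes had BRG1 peaks of few fragments. ALOX5 (ENSG00000012779, chromosome 10, 45374176 to 45446119, plus strand), the enzyme that starts leukotriene synthesis, had BRG1 peaks 519 bp upstream and 759 bp downstream of the TSS, with 5 and 8 fragments against 0.504 and 0.595 expected. The stronger was at 49.2% of its list. Farther down the gene lay an ACTL6A peak in intron 7, 64301 bp from the TSS, with 5 fragments (1.62 to 11.7) against 0.412 expected, and BRG1 peaks in intron 9 and beyond the 3′ end with 8 and 4 fragments, the last within 1 kb of the start of ENSG00000231964. The ACTL6A peak of ALOX5 overlapped no BRG1 peak. ALOX15 (ENSG00000161905, chromosome 17, 4630919 to 4642294, minus strand), which oxygenates arachidonic and linoleic acid in membranes, had 3 BRG1 peaks with 5, 5 and 10 fragments. The last, in intron 2, lay 2257 bp downstream of the MANE Select TSS and counted as a TSS peak through another transcript, ENST00000572265, whose start was 461 bp from the summit.

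POR (ENSG00000127948, chromosome 7, 75899200 to 75986855, plus strand), the reductase that passes electrons from NADPH to cytochromes P450, had 12 peaks, the most of any member. Its 16 annotated protein-coding starts were spread over 82711 bp, which gave it more places where a peak could count. At the MANE Select TSS only BRG1 had a peak, from 75914667 to 75915388, with a summit 10 bp upstream, 25 fragments (16.2 to 36.9) against 1.44 expected and a place at 13.7%; the microRNA gene MIR4651 starts within 1 kb. The ACTL6A peak that put POR among the genes with ACTL6A at a TSS lay in coding exon 8, 67138 bp from the MANE Select TSS, with 5 fragments against 0.703 expected, and ranked 23257 of 23917. NRF2 had a peak in intron 12 with 16 fragments (9.15 to 26.0) against 4.01 expected, at no start. At the TSS of TMEM120A, downstream of POR, lay an ACTL6A peak with 13 fragments, a BRG1 peak with 22, and NRF2 peaks with 15 and 19. The other 5 BRG1 peaks of POR held 5 to 7 fragments each.

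PTGS2 (ENSG00000073756, chromosome 1, 186671791 to 186680922, minus strand), the inducible cyclooxygenase, had BRG1 peaks to both sides of its start. The peak with its summit in the 5′ UTR, 87 bp downstream of the MANE Select TSS, held 10 fragments (4.80 to 18.4) against 0.469 expected and was at 33.9% of the list. The peak upstream, with its summit 345 bp away, held 7 against 0.476. The antisense RNA gene PACERR starts within 1 kb of both. The ACTL6A and NRF2 lists held 0 peaks in the region of PTGS2.

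Place among genes separates the members further than presence does. For each list the genes with a peak at a TSS were ordered by the highest -log10 q there. Over the 12512 genes with BRG1, the members stood at a median of 61.3%, from 1.19% for LPCAT3 to 96.1% for AIFM2, and 5 of 10 were within the highest 50%. For ACTL6A the 4 members stood at 13.4% (DHODH), 17.1% (LPCAT3), 79.4% (AIFM2) and 99.1% (POR) of 7578 genes. For NRF2 they stood at 34.6% (LPCAT3), 61.1% (GPX4), 84.6% (AIFM2) and 94.3% (ACSL4) of 5541 genes. Among genes with a peak at a TSS, LPCAT3 was thus in the higher part for each antibody. AIFM2, with the same pattern of presence, was in the lower part for each. Among all peaks of the ACTL6A list, though, the AIFM2 peak stood at 46.2%.

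**Figure D3:**
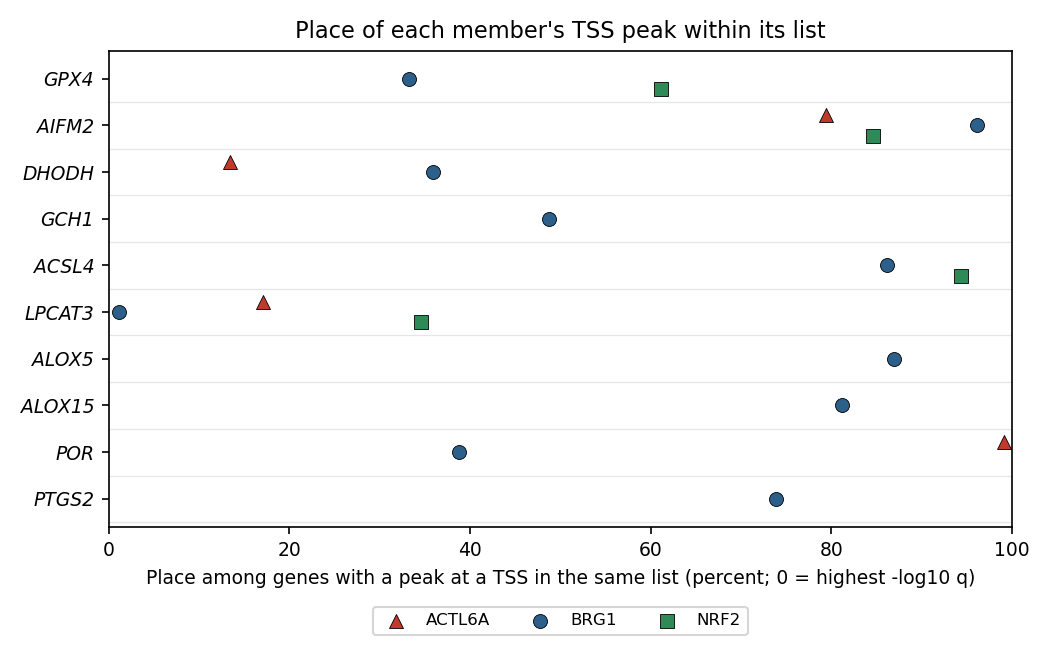
Place of each member's highest peak within 1 kb of a TSS among all genes with such a peak in the same list (x axis, percent, 0 is the highest -log10 q), by antibody. LPCAT3 lies at 1.19% for BRG1, 17.1% for ACTL6A and 34.6% for NRF2, and AIFM2 between 79.4% and 96.1% in all 3.

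By a shared 1 bp, most ACTL6A and NRF2 peaks of the members overlapped a BRG1 peak. With 50% of both peaks required the shares were 37.5% and 44.4%. The whole lists were not measured that way, so the lower shares cannot be read as particular to the members. Of the 8 ACTL6A peaks 6 overlapped a BRG1 peak (75%, Wilson 95% interval 40.9% to 92.9%), where 49.8% of the whole list did. Of the 9 NRF2 peaks 7 overlapped a BRG1 peak (77.8%, 45.3% to 93.7%), where 66.2% of the whole list did. ACTL6A and NRF2 peaks met in 3 places as counted over either list, 3 of 8 ACTL6A peaks (20.0% of the list) and 3 of 9 NRF2 peaks (49.8% of the list). These places were the starts of LPCAT3, of EMG1 and PHB2, and of TMEM120A, so LPCAT3 was the only member where ACTL6A and NRF2 peaks overlapped at its own TSS. Some peaks share a site, and the intervals treat them as independent.

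Of the 36 other genes of the same pathway, 30 (83.3%) had a BRG1 peak at a TSS, 16 (44.4%) an ACTL6A peak and 6 (16.7%) an NRF2 peak. The shares over all genes were 63.5%, 38.5% and 28.1%. The BRG1 share of these genes was thus the higher and the NRF2 share the lower, while the ACTL6A share lay close to that of all genes. These differences were not tested. The genes of radical trapping and repair had 11 of 11 with BRG1, 8 with ACTL6A and 4 with NRF2. Those with NRF2 included SPR of tetrahydrobiopterin synthesis, PDSS2 of ubiquinone synthesis, and PRDX6, a peroxiredoxin, each of which had all 3 antibodies. The NRF2 peaks of these 3 genes stood low in their list, at 84.1% for SPR, 75.2% for PDSS2 and 94.7% for PRDX6. They held 13, 10 and 11 fragments against 2.84, 1.48 and 2.46 expected. Of the 16 genes of lipid supply and remodelling 13 had BRG1, 6 ACTL6A and 1 NRF2. Of the 9 genes of lipid oxidation 6 had BRG1, 2 ACTL6A and 1 NRF2. The highest-placed BRG1 peaks of the 3 groups were at COQ2, which prenylates the ubiquinone ring (50 fragments, rank 877), FAR1, of ether lipid synthesis (58 fragments, rank 834), and ALOXE3, an epidermal lipoxygenase (112 fragments, rank 390). The highest-placed NRF2 peak of lipid supply was at PEX10 (23 fragments, rank 5395), and that of lipid oxidation was at PEBP1 (14 fragments, rank 5155). PEX10, a peroxisomal ligase, and PEBP1, a partner of lipoxygenases, were the only 2 of the 36 with the pattern of GPX4, BRG1 and NRF2 without ACTL6A. ALOX12, ALOX15B, NOX1 and the desaturation and elongation genes FADS1, FADS2 and ELOVL5 had no peak at a TSS in any list.

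**Figure D4:**
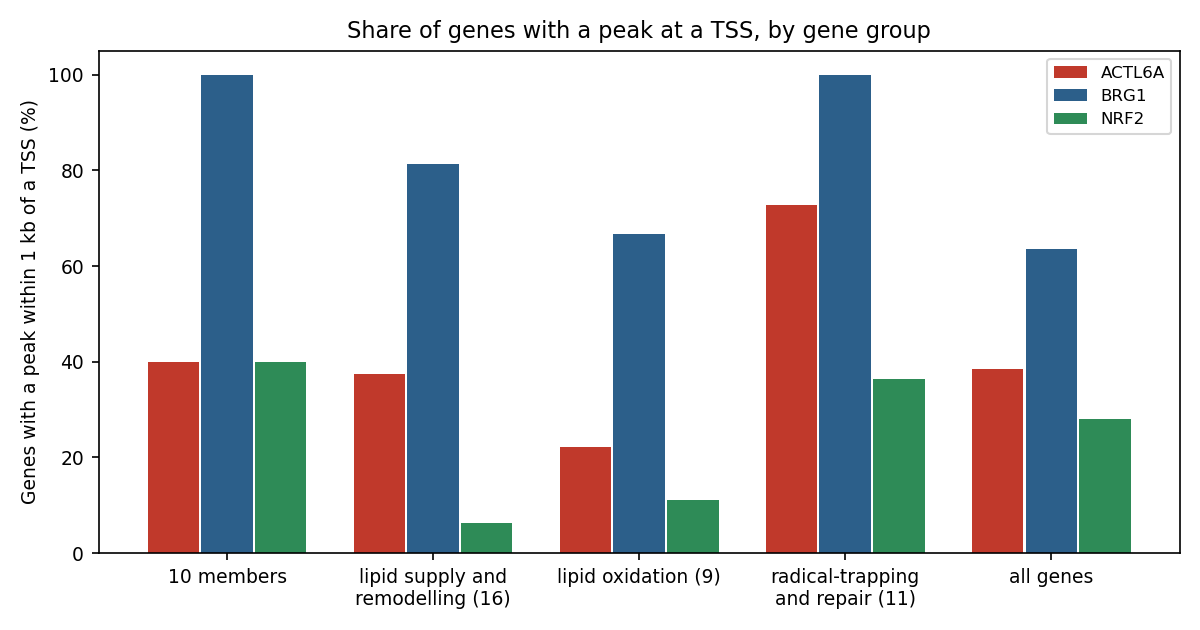
Share of genes with a peak within 1 kb of a TSS (y axis, percent) for the 10 members, 3 groups of other pathway genes (number of genes in parentheses) and all 19689 genes, by antibody. The BRG1 bar is at 100% for the members and for radical trapping and repair, and the NRF2 bar is lowest for lipid supply, at 6.25%.

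Motifs were searched by their letters on both strands, as a description of the sequence. The searched forms were the ARE core TGACNNNGC, the AP-1 motif TGANTCA, which some ARE matches contain, and the GC box GGGCGG. In the 200 bp around the summit, 0 of 9 NRF2 peaks of the members held an ARE core, where 9.66% of all NRF2 summits did. The count was 0 of 8 for ACTL6A (9.88% of its list) and 3 of 31 for BRG1 (11.5%). The GC box was at 4 of 9 NRF2 summits (34.4% of the list), 5 of 8 ACTL6A summits (22.9%) and 12 of 31 BRG1 summits (27.4%). Over whole peaks, 6 ARE matches lay in 5 BRG1 peaks of AIFM2, GCH1, ALOX15 and POR, and 0 in an ACTL6A or NRF2 peak of a member. No share over all whole peaks of a list was taken. The members had 31 BRG1 peaks against 8 of ACTL6A and 9 of NRF2, so these counts do not compare the antibodies.

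The match at AIFM2 is shown because it lay nearest to a member's start. It covered chr10:70132839-70132847 on the plus strand, 14 to 22 bp upstream of the MANE Select TSS. Another protein-coding transcript of AIFM2, ENST00000613322, starts farther upstream, so the match lies inside the gene as annotated. The match is given in capitals with 10 bases to each side.
AIFM2, ARE core upstream of the start: gggcggggcgTGACTCAGCactcgtgctg
It also contains the AP-1 motif. It lay inside the weak BRG1 peak at the start, with 168 bases between it and the end of the NRF2 peak. RefSeq promoter windows, 250 bases before to 50 after the start on GRCh38, were held for 6 of the 10 members, and of these only that of AIFM2 had an ARE core, a motif in 13.3% of 34943 windows. GC boxes numbered 5 in the window of LPCAT3, 4 in that of DHODH, 3 in that of ACSL4, 1 in that of AIFM2, 1 to 4 in the 3 windows of GPX4 and 0 in that of PTGS2, and 44.9% of all windows held at least 1. The PTGS2 window had a GC content of 50.7%, below the median of 58.7% over all windows, and those of the other 5 genes had 67% to 79%. GCH1, ALOX5, ALOX15 and POR were not among the windows used here.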

How the data were processed

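Peak lists of 5 CUT&Tag libraries of SNU638 cells were used. Paired-end reads of 150 bp were mapped by the authors to hg38 with BWA, uniquely mapped reads were kept, and MACS2 was run on each library with a q-value limit of 0.05. The submitters' processing notes also name fastp 0.23.0, FastQC, deepTools and HOMER 4.11. The control given to the caller is not given in the sources used here. Each deposited list holds, for a peak, a score (10 times the -log10 q for nearly every peak), a fold enrichment, which is a ratio with a pseudocount of 1, and the offset of the summit. The other deposited columns are MACS2's own p-value and q-value on the -log10 scale. Total reads are not in the lists. The study reported clean reads, which were fewest for ACTL6A and most for NRF2 among the antibodies. No adjustment for depth was made here.

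Fragments at a summit are the whole number for which the fold and the Poisson p-value both hold, with a tolerance of 0.001 in -log10 p, and such a number existed for 99.1% or more of every list. An overlap needed 1 bp in common. Ranks are by -log10 q within a list. With 1 library per antibody no test was made. Poisson and Wilson 95% intervals cover counting error only, since PCR copies are not independent molecules.

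All 10 members are described with all of their peaks. Of 36 other pathway genes, those named are, per role, the gene with the highest-placed BRG1 and NRF2 peak at a TSS, the genes with no peak at a TSS, and those with the pattern of GPX4; SPR, PDSS2 and PRDX6 are named after their values were seen. The highest-placed NRF2 peak among the genes of radical trapping and repair is not reported here. Genes whose start lies within 1 kb of a described peak of a member are named. Starts near the peaks of the other pathway genes were not looked up. The members and lists were chosen with earlier results of these data known. Alternatives tried were other distances, only peaks with a -log10 q of 5 or more, only the highest 5000 peaks, the MANE Select transcript only, an overlap of 50% of both peaks, and peaks shared with IgG left out. The routines were tested on simulated data. The tools were samtools 1.23.1, pysam 0.24.0, pandas 2.3.3, statsmodels 0.14.6, SciPy 1.17.1, NumPy 2.4.6 and matplotlib 3.10.9 under Python 3.11.15.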

Additional observations from a re-analysis of the deposited data

How the results depend on the processing

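Of 45 alternatives to 10 results, 20 left a count within 1.5 times its value, or a share of peaks within its Wilson 95% interval, and 25 did not. Several of the 20 were fixed in advance. They include the 6 that left out peaks shared with IgG. Leaving out an IgG library could not change a count of 0, and within 3 kb the BRG1 count was already at its ceiling of 10. No paired analysis was possible because no antibody was replicated. Without either IgG library in turn, the members with an IgG peak ranged from 0 to 0.

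With only peaks of -log10 q 5 or more, members with an ACTL6A peak at a TSS fell from 4 to 2, with NRF2 from 4 to 1 (LPCAT3), and with all 3 antibodies from 2 to 1. ACTL6A peaks over the members fell to 5, BRG1 peaks to 16 and NRF2 peaks to 4, and 100% of the ACTL6A peaks left overlapped a BRG1 peak. With the highest 5000 peaks, an ACTL6A peak at a TSS was left at 2 members, a BRG1 peak at 1 (LPCAT3), an NRF2 peak at 2 and all 3 at 1, and peaks over the members were 3, 2 and 5. These settings can only lower a count. Within 250 bp of a TSS the members were 2 for ACTL6A and 1 for all 3. With the gene alone, ACTL6A peaks numbered 4, BRG1 peaks 20 and NRF2 peaks 5, and with 50 kb to each side 29, 66 and 14, with 1 member (ALOX5) then holding an IgG peak. With 50% of both peaks required, 37.5% of ACTL6A peaks and 44.4% of NRF2 peaks overlapped BRG1. With the MANE Select transcript only, members with a peak at a TSS were 3 for ACTL6A (34.7% of genes), 9 for BRG1 (60.0%) and 4 for NRF2 (26.1%). Among the alternatives, only this one was set beside all genes. The changes under the others, overlaps included, cannot be read as particular to the members. No member peak overlapped an IgG peak, so leaving those out could not move a value. The many peaks of 5 to 10 fragments limit how firmly their places in a list can be read.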
